A study of Rattus norvegicus with 5 samples.

Results

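Neuropeptide and granin genes were examined on 5 oligonucleotide arrays of rat retinal Müller cells, the radial glia that span the retina. The 9 genes, Sst, Npy, Penk, Tac1, Vip, Cck, Scg2, Chga and Chgb, were chosen by name with the diabetic and normal values of these arrays already known, so their differences between the groups are given as descriptions without a test. Symbols matched 10 of the 8740 probe sets that are not hybridisation controls, for 8 of the 9 genes; Sst and Tac1 had 2 probe sets each, and no probe set was named Chga. The array named 4736 genes in all. Bright enough for the fit across the array were 6 of the 10, one for each of Sst, Npy, Penk, Tac1, Scg2 and Chgb. The 4 remaining probe sets were dim and are given as values.

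All cells came from male Sprague-Dawley rats. The diabetic group was a preparation from the pooled retinas of 12 rats taken 6 months after diabetes was induced with streptozotocin, which destroys insulin-producing cells, and kept on low-dose insulin against wasting. It was hybridised to 2 arrays, the second labelled a technical replicate, and these were averaged into 1 pool. The normal group was 3 separate pools of healthy rats, 12 rats each, on 1 array each; ages are not given. The purity of the preparations is not stated in the labels. The brightest probe sets of the Müller cell genes Glul, which encodes glutamine synthetase, and Slc1a3, a glutamate transporter, gave normalised signals of 7532 to 11797 and 3072 to 4014 over all arrays, while transcripts of photoreceptors and of inner retinal neurons were measured too.

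Neuropeptides are cut from larger precursors inside dense-core vesicles by prohormone convertases and trimmed by carboxypeptidase E, and they act on G protein-coupled receptors. In the mammalian retina, somatostatin, neuropeptide Y, enkephalins, substance P, vasoactive intestinal peptide and cholecystokinin are known mainly from subsets of amacrine cells, the inhibitory interneurons of the inner retina. Granins are acidic proteins of the same vesicles and help to form and fill them. In bulk RNA such as this, fewer cells of a type and less RNA per cell cannot be told apart.

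Sst was higher and Npy lower in the diabetic pool. Sst was at 3.84 times its normal signal, and Npy at 0.259 times its normal signal; each fold includes 1 array set to the floor of measurement, and its size changed with the scaling and the arrays used. The granins Scg2 and Chgb, the enkephalin precursor Penk and the brighter probe set of Tac1 had diabetic values inside or overlapping the range of the normal arrays. Vip and Cck lay at the floor of measurement in both groups.

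**Figure D1:**
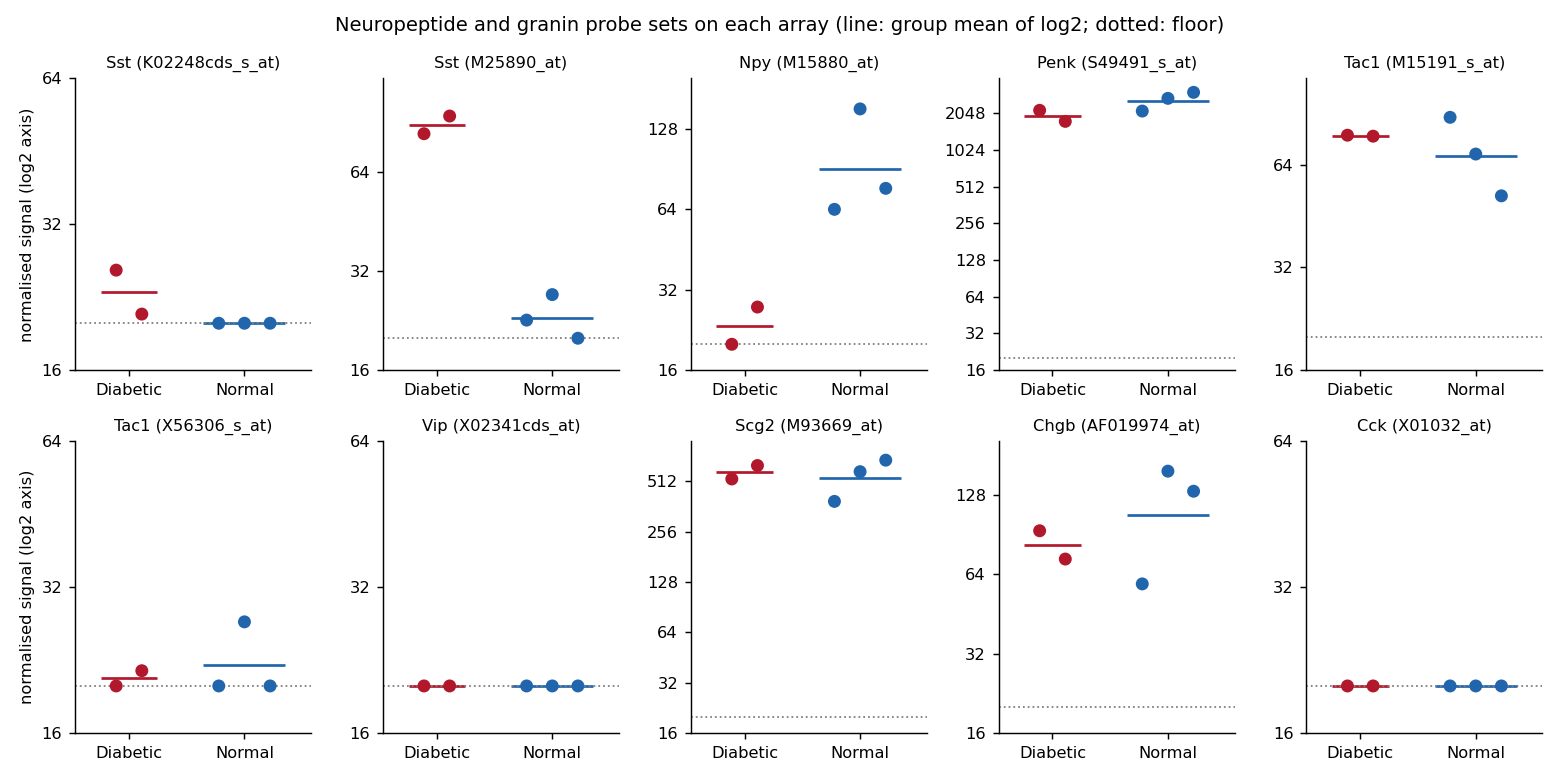
Normalised signal (log2 axis) of the 10 probe sets on the 2 diabetic arrays (red) and the 3 normal arrays (blue); lines are group means of the log2 values and the dotted line is the floor of 20. Sst (M25890_at) lies at 83.3 and 94.3 in diabetic cells against at most 27.1 in normal cells, and Npy lies at 20 and 27.6 against at least 63.9.

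Sst encodes preprosomatostatin, the precursor of an inhibitory peptide that dampens hormone and transmitter release. On its brighter probe set, M25890_at, quantile-normalised signals were 83.3 and 94.3 on diabetic arrays 1 and 2, against 22.7, 27.1 and 20 on normal arrays 1, 2 and 3. The diabetic arrays lay together and well above the normal arrays, 1 of which was at the floor of 20, the value to which dimmer signals were raised. The log2 difference was 1.94 (SE 0.48, 1 diabetic pool and 3 normal pools). The probe set passed the filter on low signal only through its diabetic level: its normal mean of 4.53 (log2) was under the lowest mean kept, 4.68. The 2 diabetic arrays differed by 0.18 on the log2 scale and the normal arrays spanned 0.44.

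The second probe set of Sst, K02248cds_s_at, was too dim to be tested. It gave 25.7 and 20.9 in diabetic cells and was at the floor on all 3 normal arrays, which makes the diabetic mean at least 1.16-fold higher. Before the floor was applied, its normalised signals were 25.7 and 20.9 in diabetic cells against 16.8, 18.5 and 16.8 in normal cells, so the groups were again apart in the same direction, over a much smaller range and with diabetic array 1 as the higher of the pair. With a floor of 50, above all normal values, the difference of the brighter probe set was 0.83, and with floors of 5 or 1 it was 1.94.

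Npy encodes neuropeptide Y, an abundant transmitter of neurons that acts on inhibitory receptors. Its only probe set, M15880_at, gave 20 and 27.6 on diabetic arrays 1 and 2, against 63.9, 151.7 and 76.6 on normal arrays 1, 2 and 3. Both diabetic arrays lay below every normal array and 1 of them was at the floor, while normal array 2 stood well above the other normal arrays. The log2 difference was -1.95 (SE 0.63). Here the filter was passed only through the normal level, since the diabetic mean was 4.55 (log2). The normal arrays spanned 1.25 on the log2 scale, a wider spread than for Sst, and leaving out 1 array at a time gave differences between -2.20 and -1.57.

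Without any scaling between arrays, the deposited values kept the order of the groups, though not that of the normal arrays among themselves. For Sst (M25890_at) they were 89.4 and 113 in diabetic cells against 17.6, 13 and 27.4 in normal cells, and for Npy 19.1 and 35.5 in diabetic cells against 44, 71.6 and 119.3 in normal cells. Normal array 3 was the brightest of the 5 arrays and diabetic array 2 the next, with medians of 91.3 and 73.1; dim normal arrays 1 and 2 had medians of 40.9 and 27.9, so unscaled values tend to lie higher in diabetic cells than in those 2 pools. On unscaled values, still raised to the floor of 20 where dimmer, the log2 difference was 2.18 for Sst and -1.44 for Npy. The floor replaced the Sst values of normal arrays 1 and 2 and the Npy value of diabetic array 1. Unscaled, 520 of the 6118 tested probe sets had both diabetic arrays above the normal arrays and 13 had both below.

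Over all 10 probe sets, 2 had both diabetic arrays above all normal arrays, both of them for Sst, and 1, Npy, had both below. The shares over all 8740 probe sets were 7.08% above and 5.34% below, and over the 6118 tested probe sets 9.53% above and 7.01% below; of the 6 tested members 1 lay above and 1 below. Since the genes were named with these values known, nothing is read from that. Leaving out normal array 1 gave a count below of 3, and leaving out diabetic array 1 gave 2, because Penk, and without normal array 1 also Chgb, overlapped through a single array. In limma's fit 0 of 6118 probe sets passed an adjusted p of 0.05 (0%), 98 had an unadjusted p under 0.05 (73 higher, 25 lower), and the median log2 difference was -0.01 over all tested probe sets.

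Promoter sequences of RefSeq (rat assembly GRCr8) are shown for Sst and Npy, which differed in opposite directions, and for Scg2, which holds the same motif as Sst without its difference. Entries were found for 6 of the 9 genes, namely Sst, Npy, Tac1, Vip, Scg2 and Chgb, as windows of 250 bases before to 50 after the annotated start. They were searched on both strands for the cAMP response element TGACGTCA and for its core TGACG, which lies within the full element; capitals mark these letters. The Sst window shown is chr11:90461488-90461565 (plus strand), the Npy window chr4:80212031-80212110 (plus strand, ending at position -1, the base before the annotated start), and the Scg2 window chr9:88256972-88257049 (minus strand).
Sst: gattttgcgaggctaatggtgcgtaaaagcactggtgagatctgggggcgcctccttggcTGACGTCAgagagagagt
Npy: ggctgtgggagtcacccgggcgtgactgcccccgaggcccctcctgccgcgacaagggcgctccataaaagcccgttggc
Scg2: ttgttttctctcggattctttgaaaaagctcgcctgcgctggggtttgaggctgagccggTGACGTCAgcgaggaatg

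The full element was found in 2 of the 6 promoters, at position 3 of the annotated Sst transcript (the start is position 1) and at position -123 of Scg2. It was present in 1.83% of all 33469 promoter windows of that length. The core was found in 4 of the 6, those of Sst, Scg2, Tac1 and Vip, and in 21.2% of all windows. Neither was found in the Npy or Chgb window, which says only that these letters are absent there. A match is a description of the sequence, and Sst and Scg2, which both hold the full element, had log2 differences of 1.94 and 0.11.

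Among the other peptide precursors, Penk, which encodes the precursor of the opioid enkephalins, had signals of 2156 and 1750 in diabetic cells, against 2126, 2702 and 3027 in normal cells. Diabetic array 1 lay just above normal array 1, and the groups otherwise did not overlap. Its log2 difference was -0.42 (SE 0.29), or 0.12 with the deposited values unscaled and -0.79 between the arrays that shared a processing day.

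Tac1 encodes the precursor of substance P and neurokinin A. On M15191_s_at it gave 78.1 and 77.6 in diabetic cells, against 88.1, 68.8 and 51.9 in normal cells. The 2 diabetic arrays were nearly equal and lay within the normal range, with a log2 difference of 0.20 (SE 0.51), or 0.74 unscaled. The second probe set, X56306_s_at, gave 20 and 21.5 in diabetic cells against 20, 27.1 and 20 in normal cells, so that it was at the floor on 3 of 5 arrays.

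Vip encodes vasoactive intestinal peptide and Cck cholecystokinin, both transmitters of amacrine cells. Their probe sets were at the floor of 20 on all 5 arrays. Before the floor, normalised signals were 15.0 and 9.66 in diabetic cells against 5.96, 7.02 and 13.8 in normal cells for Vip, and 14.4 and 17.5 against 12.5, 18.9 and 14.1 for Cck. Both sets of values overlapped between the groups, and no fold is given for either gene.

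Of the granins, Scg2 encodes secretogranin II, the precursor of secretoneurin. It gave 529.6 and 637.3 in diabetic cells, against 388.8, 585.5 and 686.1 in normal cells. The diabetic values lay inside the normal range (log2 difference 0.11, SE 0.38), and the difference was 0.60 unscaled, -0.13 without normal array 1 and -0.26 on the 3 arrays whose actin ratio was low. Chgb, encoding chromogranin B, gave 93.6 and 73.1 in diabetic cells, against 58.9, 157.7 and 132.3 in normal cells. The diabetic arrays lay between normal array 1 and the other normal arrays, with a log2 difference of -0.37 (SE 0.65), -0.80 without normal array 1 and 0.13 unscaled.

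**Figure D2:**
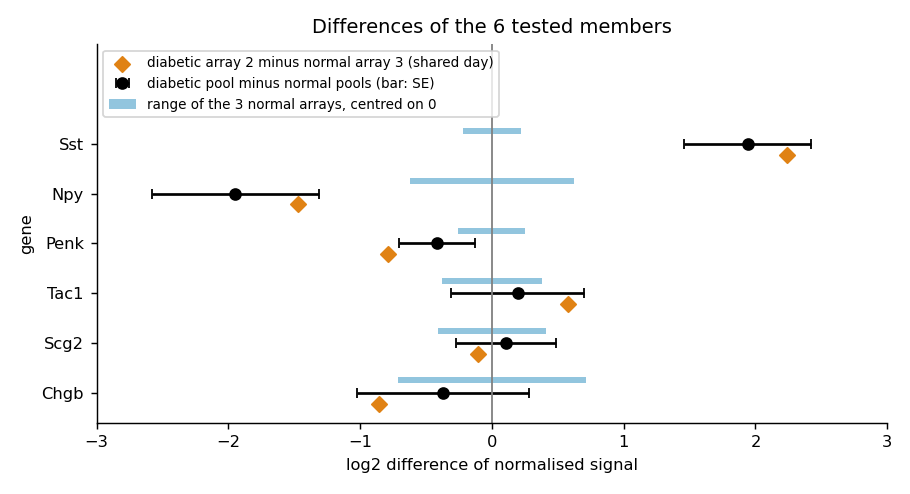
Log2 difference of normalised signal, diabetic minus normal, for the 6 tested genes: black points with SE for 1 diabetic pool against 3 normal pools, orange diamonds for the 2 arrays of the shared processing day, and blue bars for the span of the 3 normal arrays centred on 0. Sst at 1.94 and Npy at -1.95 lie far outside their bars and Penk at -0.42 just outside its bar, while the other 3 differences lie within theirs. A bar reaches equally to both sides of 0, so its ends lie closer to 0 than the full span. For Penk the full span of the normal arrays, 0.51, is larger than the difference, and diabetic array 1 lies within the normal range.

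Array quality and processing day were set beside these values. Signal at the 3' end of actin over that at its 5' end, which grows as RNA degrades, was 1.76 and 2.55 on diabetic arrays 1 and 2, against 2.61, 1.52 and 1.46 on normal arrays 1, 2 and 3. On the 3 arrays with a ratio under 2, diabetic array 1 and normal arrays 2 and 3, the log2 difference was 1.84 for Sst and -2.43 for Npy. Diabetic array 2 and normal array 3 shared a processing day and chip lot, and between them the difference was 2.24 for Sst and -1.47 for Npy. No other recorded day held both groups. The day of diabetic array 1 is not recorded, so whether it shared a day with a normal array is not known. Without diabetic array 1 the differences were 2.03 for Sst and -1.72 for Npy, and without diabetic array 2 they were 1.85 and -2.18.

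The genes whose profiles over the 5 arrays were nearest to a member were found by the root-mean-square distance between log2 profiles, each centred on its own mean, among probe sets of other genes with at least 50% of the member's standard deviation. For Sst, whose own standard deviation was 1.08, the nearest was Cebpd, a transcription factor of the acute-phase response, at a distance of 0.060. It was followed by C3, the central complement component, at 0.126, the complement protease C1s at 0.186, the protease inhibitor Serpina3n at 0.231 and the interferon-induced membrane protein Ifitm3 at 0.235. Cebpd gave 1138 and 1343 in diabetic cells against 316.9, 395.6 and 258.1 in normal cells, with the same order of the 5 arrays as Sst. All 5 nearest genes had both diabetic arrays above all normal arrays, as any profile close to that of Sst must.

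For Npy the nearest profiles were farther away, at 0.404 for the zinc finger transcription factor Klf4, 0.426 for Lct, which encodes lactase, and 0.429 for Maea, a subunit of a ubiquitin ligase, against a standard deviation of 1.17 for Npy itself. Klf4 gave 120.9 and 78.3 in diabetic cells against 180.4, 503.1 and 260.8 in normal cells, with its highest value on normal array 2, as for Npy. For Scg2 the nearest was Gnb2, a G protein subunit, at 0.032, for Penk the SNARE gene Snap29 at 0.054, for Tac1 the glutamate receptor gene Grin2b at 0.065, and for Chgb the DNA methyltransferase gene Dnmt1 at 0.107. No gene was among the nearest of more than 1 member.

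**Figure D3:**
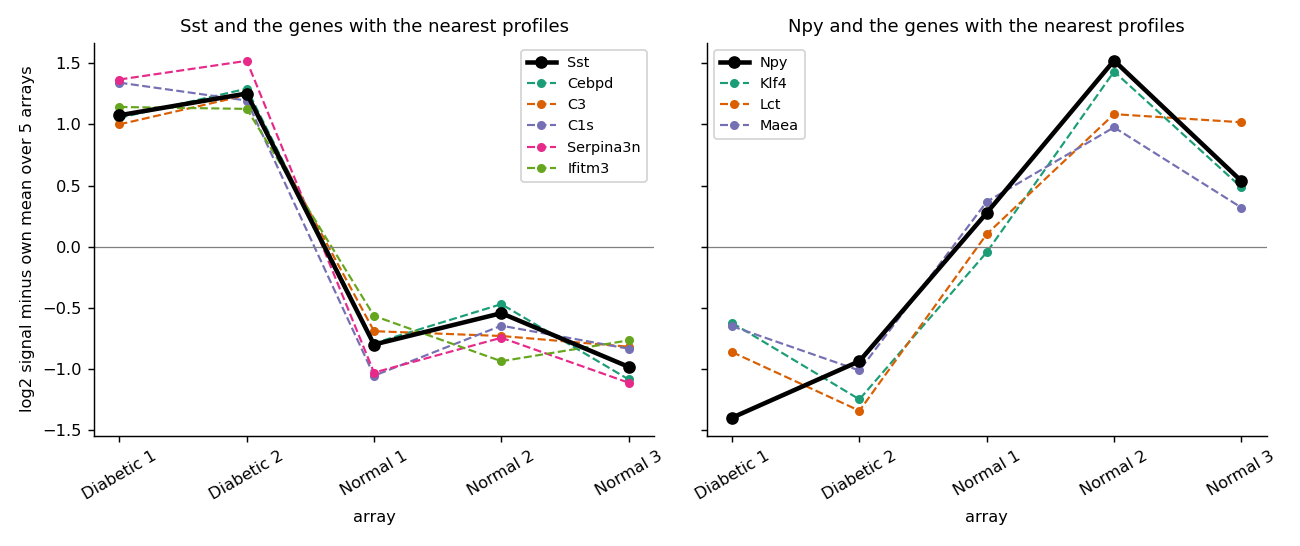
Log2 signal of each array minus the gene's own mean over the 5 arrays, for Sst and its 5 nearest genes (left) and Npy and its 3 nearest genes (right). The lines of Cebpd and Sst nearly coincide (distance 0.060), while those of Npy and Klf4 part on the diabetic arrays (distance 0.404).

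Of 39 other neuropeptide, peptide hormone and granin genes listed, 30 had a probe set and 18 were tested. With limma 0 of the 18 passed in either direction, and 0 had an unadjusted p under 0.05; 10 lay above and 8 below normal, with a median log2 difference of 0.07 against -0.01 over all tested probe sets. At the brightest probe set of each gene, none had both diabetic arrays above or both below all normal arrays, against 9.53% and 7.01% of all tested probe sets. Scg3, encoding secretogranin III, gave 869.9 and 1013 in diabetic cells against 763.9, 806.0 and 988.2 in normal cells (log2 difference 0.15, SE 0.26), and Vgf, a granin-like neurotrophin-induced gene, 139.3 and 115.5 against 123.8, 106.0 and 76.0 (0.34, SE 0.46). The galanin gene Gal gave 65.9 and 28.9 in diabetic cells against 25.1, 127.2 and 135.1 in normal cells (-0.79, SE 1.05), and its groups overlapped widely. Log2 differences were 0.22 (SE 0.32) for the dynorphin gene Pdyn, -0.15 (SE 0.65) for Pomc, the precursor of corticotropin and endorphin, 0.10 (SE 0.49) for Adcyap1, which encodes the Vip-related peptide PACAP (-0.14 at its dimmer probe set), and 0.08 (SE 0.52) for the neurokinin B gene Tac3. The corticotropin-releasing hormone gene Crh was too dim to be tested, and no probe set was named Nts. For Calca, the calcitonin gene, the log2 difference was -0.46 (SE 0.70), and for Trh, the thyrotropin-releasing hormone gene, it was -0.15 (SE 0.57). A dimmer probe set of Pdyn, M10088cds_s_at, had both diabetic arrays above all normal arrays, at 158.3 and 105.1 against 88.5, 66.6 and 67.4 (log2 difference 0.81, SE 0.44), as did a dimmer probe set of the vasopressin gene Avp, M64785_g_at, at 58.7 and 67.0 against 30.9, 45.1 and 49.3 (0.61, SE 0.52). Both were singled out after their values were seen.

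Among peptide-processing and granule genes, 17 of 20 were tested, and limma called 0 of them in either direction. Pcsk2, encoding prohormone convertase 2, was the 1 gene with an unadjusted p under 0.05. On M83746_at it gave 245.7 and 203.1 in diabetic cells, against 93.8, 99.7 and 121.7 in normal cells. The groups did not overlap, and the log2 difference was 1.10 (SE 0.38) with limma's p at 0.0309 before adjustment; it did not pass after Benjamini-Hochberg adjustment. The dimmer probe set S40669_s_at gave 37.4 and 29.6 against 22.1, 34.0 and 36.1, with overlap (0.15, SE 0.53). Cpe, carboxypeptidase E, gave 1302 and 1550 in diabetic cells against 1227, 1456 and 1536 in normal cells (0.02, SE 0.25). The vesicle phosphatase-like gene Ptprn had both diabetic arrays above all normal arrays, at 493.6 and 427.8 against 299.6, 296.8 and 408.9 (0.47, SE 0.32). Pcsk2 and Ptprn were the 2 of the 17 genes with both diabetic arrays above, and 0 had both below. The shares over all tested probe sets were 9.53% and 7.01%. Log2 differences were 0.07 for the amidating enzyme gene Pam (SE 0.27, with 0.19 and -0.17 at its other probe sets), 0.07 for Scg5, whose protein is a chaperone of convertase 2 (SE 0.42), 0.15 for the convertase gene Furin (SE 0.29), 0.07 for Rab3a (SE 0.51) and -0.25 for the calcium sensor gene Syt1 (SE 0.69). The list median was 0.04, and 11 genes lay above and 6 below normal.

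Receptors of these peptides were mostly dim. Of 22 listed, 19 had a probe set, 9 were tested and limma called 0 in either direction, with 0 at an unadjusted p under 0.05; 2 lay above and 7 below normal, with a median log2 difference of -0.11. Of the somatostatin receptors, Sstr5 gave 33.4 and 49.2 in diabetic cells, against 20, 30.5 and 20 in normal cells, so that 2 normal arrays were at the floor (log2 difference 0.82, SE 0.51). Sstr5 passed the filter only through its diabetic level, since its normal mean of 4.52 (log2) was under the lowest mean kept, 4.68. Sstr4 gave 124.7 and 47.3 against 142.7, 78.1 and 79.2 (-0.32, SE 0.53), and Sstr1, Sstr2 and Sstr3 were too dim to be tested. The neuropeptide Y receptor gene Npy1r gave 50.2 and 50.6 in diabetic cells against 49.8, 44.6 and 47.4 in normal cells, a log2 difference of 0.09 (SE 0.46). The opioid receptor gene Oprm1 differed by -0.11 (SE 0.70), the tachykinin receptor gene Tacr3 by -0.09 (SE 0.60) and the cholecystokinin receptor gene Cckbr by -0.32 (SE 0.45). The receptor genes Npy4r, Npy5r, Oprd1, Oprk1, Oprl1, Tacr1 and Tacr2 were also too dim to be tested. The Vip receptor genes Vipr1 and Vipr2 differed by -0.18 (SE 0.45) and -0.05 (SE 0.30), and Adcyap1r1, the PACAP receptor, was at the floor on both diabetic arrays against 20.2, 58.5 and 37.6 in normal cells. Adcyap1r1 passed the filter only through its normal level.

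Peptide-degrading enzymes and genes of the cAMP response were also measured. Of 12 degradation genes 10 were tested; 0 passed limma's threshold in either direction, 0 had an unadjusted p under 0.05, and the median was 0.03. Log2 differences were 0.05 (SE 0.25) for Ece1 (-0.35 at its dimmer probe set), -0.03 (SE 0.54) for Ace and 0.87 (SE 0.83) for Dpp4, of which 2 normal arrays were at the floor. Of 11 cAMP response genes 6 were tested, again with 0 past limma's threshold and 0 at an unadjusted p under 0.05 (median -0.18). Creb1, encoding the factor that binds the cAMP response element, gave 53.9 and 45.5 in diabetic cells, against 97.6, 76.1 and 65.9 in normal cells. Both diabetic arrays were below all normal arrays, with a log2 difference of -0.67 (SE 0.48). The same held for Prkar1a, so 2 of the 6 lay below and 0 above. The shares over all tested probe sets were 7.01% below and 9.53% above. Its relative Crem gave 134.2 and 117.0 against 41.5, 170.2 and 107.8 (0.46, SE 0.82).

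**Figure D4:**
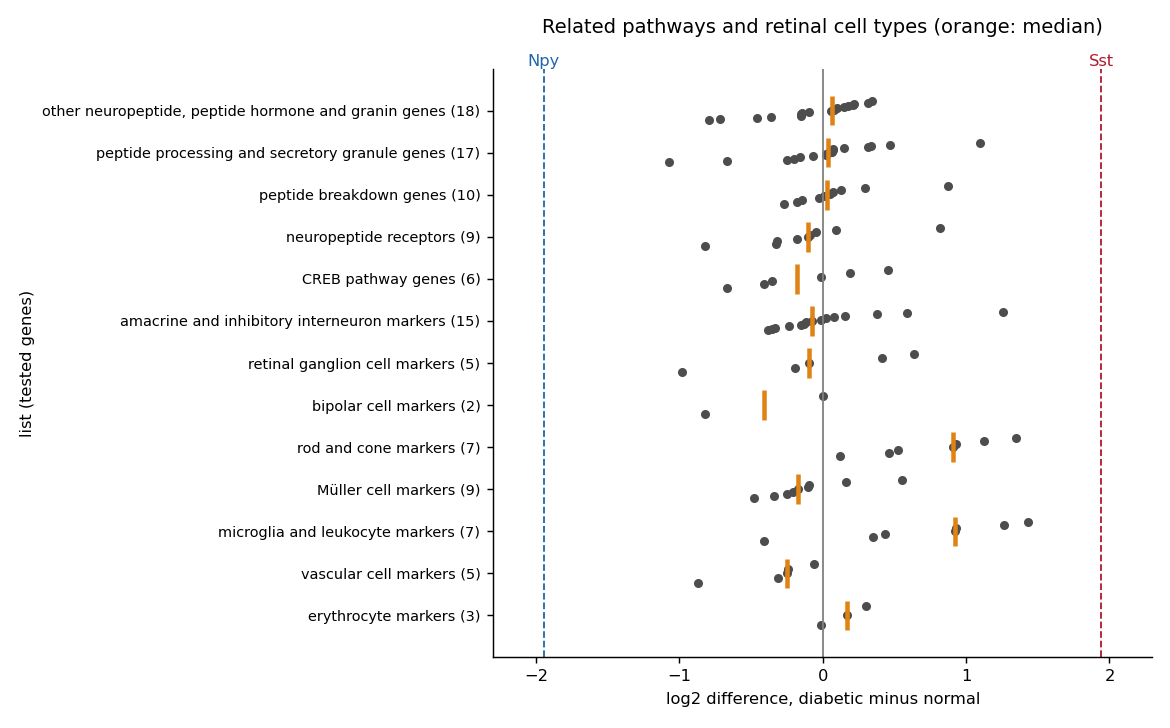
Log2 difference, diabetic minus normal, of each tested gene (points, brightest probe set) by list, with the list median in orange and the values of Sst and Npy as dashed lines. All listed genes lie between -1.07 and 1.43, inside the values of Sst and Npy, and the medians of the peptide-related lists lie between -0.18 and 0.07.

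Markers of the retinal cell types that a preparation may hold were read on the same arrays. Amacrine and other inhibitory interneuron markers, the class that contains somatostatin and neuropeptide Y neurons, summed to 2315 and 2172 on the diabetic arrays, against 1936, 2684 and 1719 on the normal arrays, over 15 tested genes of 18. The groups overlapped, and the median log2 difference was -0.08. At the brightest probe sets none of the 15 had both diabetic arrays above or both below all normal arrays, against 9.53% and 7.01% of all tested probe sets. Gad1, encoding a GABA-synthesising enzyme, differed by 0.02 (SE 0.64), the glycine transporter gene Slc6a9 by 1.25 (SE 0.86), Calb1 by -0.35 (SE 1.05), Calb2 by -0.15 (SE 0.53) and the dopamine-synthesis gene Th by -0.01 (SE 0.51). Of the synaptic genes, Snap25 differed by -0.33 (SE 0.46) and Syn1 by -0.08 (SE 0.41). The other 3 probe sets of Snap25 differed by -0.72, -0.50 and -0.87, and the last of these, U56261_s_at, had both diabetic arrays below all normal arrays, at 22.0 and 20 against 32.0, 39.6 and 44.0. The part of amacrine cells in the Sst or Npy values was not tested.

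Ganglion cell markers summed to 635.7 and 966.7 in diabetic cells against 502.5, 935.5 and 715.2 in normal cells over 5 genes, among them Thy1 (log2 difference 0.42, SE 0.40) and Nefl (-0.19, SE 0.61). The 2 tested bipolar cell markers summed to 229.7 and 208.4 against 137.8, 265.8 and 371.1. Müller cell markers summed to 40551 and 41640 in diabetic cells against 34779, 41165 and 46649 in normal cells over 9 genes; at the brightest of their 4 tested probe sets each, Glul differed by -0.21 (SE 0.33) and Slc1a3 by 0.16 (SE 0.26). The other 3 differed by 0.05, 0.10 and -0.27 for Glul and by -0.47, -0.18 and 0.46 for Slc1a3, so the probe sets of both genes disagreed in direction. These 3 sums overlapped between the groups. Vascular markers, at 2346 and 2862 against 3348, 2457 and 2620 over 5 genes, and erythrocyte markers, at 950.7 and 967.6 against 956.4, 1180 and 637.4 over 3 genes, overlapped too.

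The sums of 2 marker lists lay higher on both diabetic arrays than on all normal arrays, as Sst did. Rod and cone markers summed to 12355 and 13189 in diabetic cells against 9757, 9363 and 4124 in normal cells over 7 genes, 7 of which lay above normal (median 0.91). Of all 6118 tested probe sets, 2986 lay above normal. At the brightest probe sets 4 of the 7 had both diabetic arrays above all normal arrays and 0 had both below. The shares over all tested probe sets were 9.53% and 7.01%. Sag, the rod arrestin gene, gave 5322 and 5475 against 3620, 3151 and 1331 (log2 difference 1.12, SE 0.59). Its dimmer probe set M60737_at gave 2208 and 2855 against 2905, 1482 and 1137, with overlap (0.56, SE 0.53). Microglia and leukocyte markers summed to 2000 and 2245 in diabetic cells against 1340, 1720 and 1473 in normal cells over 7 genes, 6 of which lay above normal (median 0.92). By the same count 5 of these 7 had both diabetic arrays above all normal arrays and 0 had both below. The largest log2 difference of these, 1.43 (SE 0.51), was that of Coro1a, at 75.0 and 51.2 against 20, 20 and 30.3. Coro1a passed the filter only through its diabetic level, since its normal mean of 4.52 (log2) was under the lowest mean kept, 4.68. With limma 0 genes of either list passed, and 1 of each had an unadjusted p under 0.05. The part of these cells in the Sst or Npy values was not tested.

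**Figure D5:**
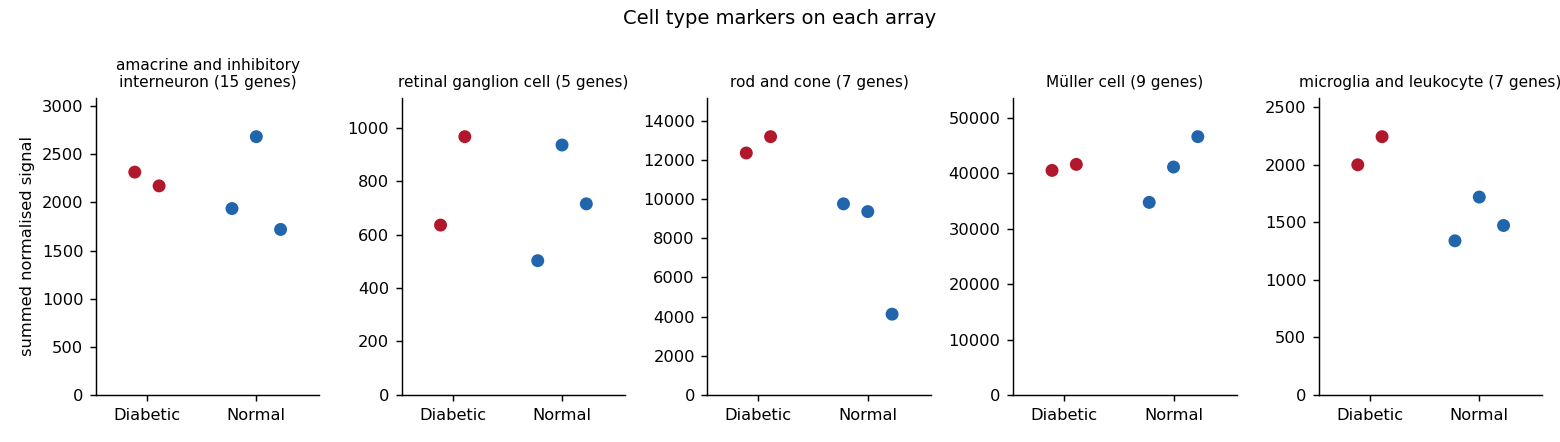
Summed normalised signal of 5 marker lists (linear axes from 0) on the 2 diabetic arrays (red) and the 3 normal arrays (blue). The amacrine sums overlap, at 2315 and 2172 against 1719 to 2684, while the rod and cone sums and the microglia sums are higher on both diabetic arrays.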

How the data were processed

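The deposited files hold one intensity on a linear scale for each probe set of an Affymetrix rat chip, per the file headers; how the authors summarised and scaled them is not given in the sources used here. Arrays were quantile-normalised, floored at 20 and converted to log2; 59 control probe sets were left out, and the dimmest 30% by the mean of the group means were dropped, leaving 6118 of 8740. The floor can shrink differences of dim genes or change their direction. For the dim Tac1 probe set X56306_s_at the log2 difference was -0.09 with the floor of 20 and 0.56 with floors of 5 or 1. The 2 diabetic arrays were averaged, and this mean was set against the 3 normal samples with limma 3.58.1 in R 4.3.3 (lmFit, eBayes with trend, Benjamini-Hochberg over all tested probe sets, two-sided); only normal pools inform the spread, which is taken to hold for the single diabetic pool as well. Standard errors are from that fit. The step was run on simulated data with changes larger than those of Sst and Npy. Its noise was lower than the spread of the tested members over the normal arrays. The run therefore does not show which differences the fit could find in these data. The number of arrays limits the precision.

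Symbols came from the platform annotation, updated through Entrez IDs to RefSeq (GRCr8); of the probe sets, 7006 carried 1 symbol and were used for names, 308 carried several and 1426 were unnamed. Members, gene lists and the rule for named genes were chosen with earlier results of these data known: every member, a fixed set of genes per list at their brightest tested probe set whatever their values, and the nearest profiles. Some genes outside that rule, among them Coro1a, Csf1r, Adcyap1r1 and Avp, and dimmer probe sets were named with their values known. Mme, Gad2 and Rest were in the fixed set but too dim to be tested. Deposited experiment records were read only for processing day and chip lot. Alternatives were the scaling, floor, filter, variance trend, threshold, treatment of the repeat, each array left out, the shared day and the arrays with a low actin ratio. Figures were drawn with matplotlib 3.10.9.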

Additional observations from a re-analysis of the deposited data

How the results depend on the processing

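No paired analysis was possible, because the diabetic arrays come from 1 pool and the normal pools are of other rats with no stated match to it. Sst (M25890_at) stayed higher and Npy lower in diabetic cells under each other scaling, floor and choice of arrays; the filter and the treatment of the repeat cannot change a difference of means. The Sst difference of 1.94 was 2.18 on unscaled values, 0.83 with a floor of 50 and 2.24 on the shared processing day; with 1 array left out it lay between 1.84 and 2.06. The Npy difference was -0.86 with a floor of 50. The dim Sst probe set K02248cds_s_at had a difference of 0 with a floor of 50, since all its values lie under that floor.

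Probe sets past limma's threshold numbered 147 with a floor of 50, 170 with no filter and 13 with the 5 arrays as separate samples, against 0; of the 147 and the 170, 138 and 162 had all normal arrays at the floor, where there is no spread. Of the listed genes, 1 passed with a floor of 50 (Coro1a) and 1 with no filter (Csf1r). Tested probe sets with both diabetic arrays above all normal arrays (583) numbered 860 to 1374 with 1 array left out, and 2058 where only the 3 arrays of low actin ratio were used. Those below (429) numbered 727 to 1374, 2137 and, unscaled, 13. Fewer arrays overlap less often by construction. Among the members, the 2 above were 1 with a floor of 50, 3 unscaled, 2 to 3 with 1 array left out and 3 on the low-ratio arrays, and the 1 below was 1 to 3 with 1 array left out and 4 on the low-ratio arrays.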
